A study of Mus musculus with 6 samples.

Results

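Kcnq1, Kcnq3 and Kcnq5 encode pore-forming subunits of voltage-gated potassium channels of the Kcnq family. They were 3 of the 34745 genes in the deposited table of the embryonic mouse medial ganglionic eminence (MGE), the ventral forebrain zone that gives rise to cortical interneurons. The genes were chosen by name, and the family was selected on the measured genotype difference of Kcnq3, so the values of its members between the genotypes are given as a description without a test. RNA had been profiled from MGE dissected at embryonic day 12.5 from Sp9 null mice (3 libraries) and wild type littermates (3 libraries). Sp9 is a zinc-finger transcription factor of the ganglionic eminences. All libraries came from a mixed 129S6, C57BL/6J and CD1 background. The labels name no tissue-specific driver for the null allele, so changes inside MGE cells and changes in the cells around them are read together. The labels do not say whether the 3 libraries of a genotype came from separate embryos or litters, and the spread between them may be technical. In bulk tissue, fewer cells of a type and less RNA per cell cannot be told apart.

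Several such subunits assemble around each Kcnq channel pore. The channels open slowly on depolarization and do not inactivate as fast potassium channels do. In neurons, Kcnq3 and Kcnq5 subunits carry the M-current, a steady outward current that holds back repetitive firing. Receptors coupled to Gq close these channels by depleting the membrane lipid PIP2, which the channels need to open. Kcnq1 works mainly in heart and epithelia, where Kcne beta subunits set its behaviour, and its gene lies in an imprinted domain with the antisense transcript Kcnq1ot1.

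Whether reads can be assigned to a single member depends on how much sequence the genes share, and this was measured on GENCODE M21 transcripts (GRCm38). Over the aligned coding sequence, identity was 63.8% for Kcnq3 and Kcnq5, 64.8% for Kcnq3 and Kcnq1, and 66.4% for Kcnq5 and Kcnq1. No run of 50 bases was shared between the annotated transcripts of any pair, and the longest shared run was 20 bases. The coding sequences hold 873 codons in Kcnq3, 952 in Kcnq5 and 668 in Kcnq1.

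The libraries held 6826447 to 10979280 counts in Sp9 null MGE and 9536050 to 10914147 counts in wild type MGE. Sp9 itself had 89, 116 and 118 counts in the Sp9 null libraries, against 1939, 2700 and 1870 in the wild type libraries. Replicate 2 of both genotypes stood apart: the summed level of 13 neuronal markers (in CPM, counts per 1000000 counts of the library) was 2497 CPM in null replicate 2 and 2991 CPM in wild type replicate 2, against 4045 to 4530 CPM in the other null libraries and 4341 to 4353 CPM in the other wild type libraries. All 10 MGE markers passed the filter on low counts, as did 10 of 11 stomach and pancreas markers, so passing shows detection only. The MGE markers summed to 4371 to 4575 CPM in null libraries and 3815 to 3990 CPM in wild type libraries. Markers of stomach and pancreas summed to 0.732 to 0.954 CPM in null libraries and to 92.0 to 117 CPM in wild type libraries. Microglia markers summed to 7.74 to 12.6 CPM in null libraries and to 29.4 to 33.7 CPM in wild type libraries. Same-numbered libraries of the 2 genotypes deviated together, but replicates 1 and 3 also did so across numbers. Fits were made both without and with the replicate number as a block. The p-values with the block rest on this pairing, which was judged on the same data. At an adjusted p of 0.05, edgeR called 22 of 14929 tested genes (0.147%) without the block, of which 7 (0.0469%) were higher in Sp9 null MGE. With the block it called 597 (4.0%), of which 332 (2.22%) were higher in Sp9 null MGE.

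Kcnq3 was about 2.15-fold higher in Sp9 null MGE than in wild type MGE (ratio of mean CPM). In neurons its product pairs with other Kcnq subunits to form the M-channel, and human KCNQ3 is a gene of familial neonatal epilepsy. It had 730, 1284 and 975 counts in the Sp9 null libraries and 468, 565 and 513 counts in the wild type libraries. As shares of the library this was 107, 117 and 103 CPM in null libraries, against 49.1, 51.8 and 51.7 CPM in wild type libraries. Every null library lay above every wild type library, and the lowest null value was well above the highest wild type value. The means were 109 ± 7.03 CPM in Sp9 null MGE and 50.9 ± 1.54 CPM in wild type MGE (SD, n = 3 each). Within same-numbered pairs the null to wild type ratio was 2.18, 2.26 and 1.999, so each pair gave a difference of similar size.

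The fitted log2 fold change of Kcnq3 was 1.12 with a standard error of 0.09 in edgeR without the block, and 1.12 with a standard error of 0.07 with it. The ratio of summed counts, scaled by depth, was 2.16, with an exact 95% interval of 2.03 to 2.29 that covers counting error only. Kcnq3 was among the genes called higher in edgeR in both fits, against shares of 0.0469% and 2.22% of all tested genes. It had been selected on this contrast, so nothing is read from that call, which was lost when wild type replicate 1 was left out (log2 fold change 1.10, standard error 0.11). Without the pair of replicate 2, in which neuronal markers were low, its log2 fold change was 1.08 with a standard error of 0.09. Of all tested genes, 739 (4.95%) had every null library above every wild type library, and 67 of all tested genes (0.449%) had a log2 fold change of at least 1, whether or not the groups overlapped.

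Kcnq5, whose product also carries M-current and can pair with Kcnq3, was expressed at a low level. It had 20, 38 and 32 counts in the Sp9 null libraries and 28, 23 and 20 counts in the wild type libraries. This corresponded to 2.93, 3.46 and 3.39 CPM in null libraries, against 2.94, 2.11 and 2.02 CPM in wild type libraries. The groups overlapped: null replicate 1 was just under wild type replicate 1, and the other 2 null libraries were above all wild type libraries. The means were 3.26 ± 0.289 CPM in Sp9 null MGE and 2.35 ± 0.507 CPM in wild type MGE (SD, n = 3 each). In edgeR the fitted log2 fold change was 0.50 with a standard error of 0.27, and Kcnq5 was not called in either fit. The same-numbered pairs gave ratios of 0.998, 1.64 and 1.68. The depth-scaled ratio of 90 counts in null libraries and 71 in wild type libraries was 1.41, with an exact 95% interval of 1.02 to 1.96 for counting error only.

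Kcnq1, the subunit of the slow cardiac and epithelial potassium currents, was close to the limit of detection and did not pass the filter on low counts. It had 10, 13 and 5 counts in the Sp9 null libraries and 7, 4 and 8 counts in the wild type libraries. Its levels were 1.47, 1.18 and 0.530 CPM in null libraries and 0.734, 0.367 and 0.807 CPM in wild type libraries. The groups overlapped, with the lowest null library below 2 of the wild type libraries. Mean levels were 1.06 ± 0.480 CPM in Sp9 null MGE and 0.636 ± 0.236 CPM in wild type MGE (SD, n = 3 each). The same-numbered pairs gave null to wild type ratios of 1.996, 3.23 and 0.657, so pair 3 went the other way. The depth-scaled ratio was 1.64 with an exact 95% interval of 0.886 to 3.11 for counting error only. Of the 3 genes, 2 were therefore in the test across all genes.

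**Figure D1:**
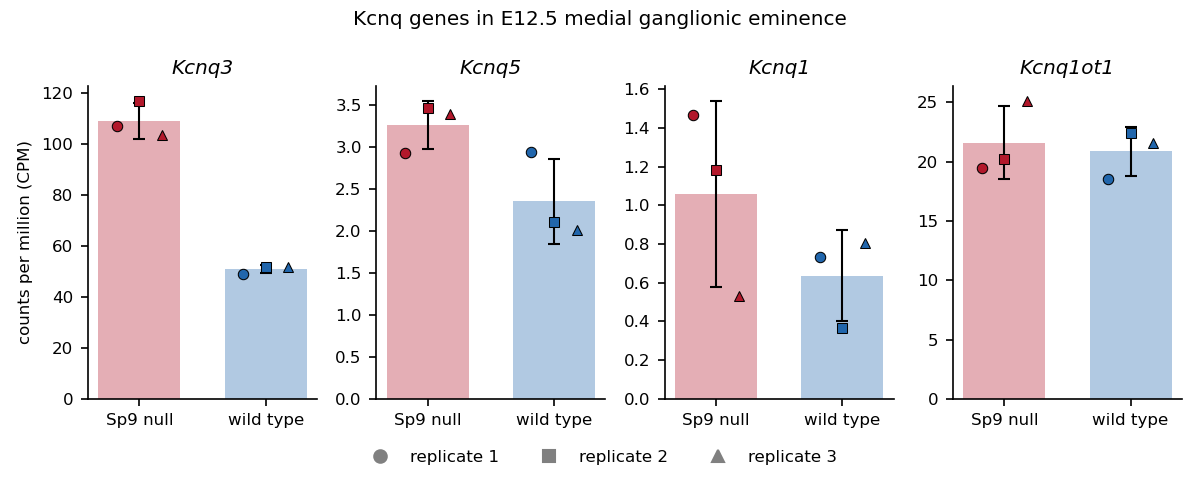
Levels of Kcnq3, Kcnq5, Kcnq1 and the antisense transcript Kcnq1ot1 in CPM, with Sp9 null libraries (red) left of wild type libraries (blue). Bars are means, error bars are SD (n = 3 each) and marker shapes give the replicate number; each panel has its own scale, and only the Kcnq3 panel shows groups without overlap (103 to 117 CPM in null libraries, 49.1 to 51.8 CPM in wild type libraries).

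Kcnq1ot1 (ENSMUSG00000101609) is the long non-coding RNA that, on the paternal chromosome, silences genes of the imprinted domain, and it is transcribed against the direction of Kcnq1. It had 133, 222 and 237 counts in the Sp9 null libraries and 177, 245 and 214 counts in the wild type libraries. Its level was 21.6 ± 3.07 CPM in Sp9 null MGE and 20.9 ± 2.04 CPM in wild type MGE (SD, n = 3 each). Per length, over 84395 bases, this was 0.256 ± 0.0364 FPKM in null MGE and 0.247 ± 0.0242 FPKM in wild type MGE. The antisense transcript thus had more counts than Kcnq1 in every library, while per length it was lower than Kcnq1 in null replicates 1 and 2 and higher in the other 4 libraries. Its log2 fold change was 0.07 with a standard error of 0.14 (adjusted p = 0.984 in edgeR). It spans chr7:143212155-143296549 inside Kcnq1 and covers 121 of the 4093 exonic bases of Kcnq1. How strand was treated in counting is not known here, so reads from those bases cannot be assigned to either transcript, and the low Kcnq1 counts are uncertain to that extent.

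Kcnq3 stood far above the other members in both genotypes. Levels per length are given in FPKM (fragments per kilobase of transcript and per 1000000 counts). Kcnq3 averaged 7.44 ± 0.480 FPKM in Sp9 null MGE and 3.47 ± 0.105 FPKM in wild type MGE. Kcnq5 averaged 0.228 ± 0.0202 FPKM in null MGE and 0.165 ± 0.0355 FPKM in wild type MGE. Kcnq1 averaged 0.233 ± 0.106 FPKM in null MGE and 0.140 ± 0.0520 FPKM in wild type MGE (SD, n = 3 each throughout). Kcnq3 was the highest of the 3 genes in each of the 6 libraries, and its FPKM was 29.7 to 35.6 times that of Kcnq5 in null libraries and 16.3 to 24.99 times in wild type libraries. Kcnq5 and Kcnq1 overlapped in both genotypes, and their order changed from library to library. The length behind the deposited Kcnq5 values was 14283 bases, while the exons annotated in GENCODE M21 cover 7689 bases. With that shorter length, chosen after the lengths were compared, Kcnq5 would average 0.424 FPKM in null MGE and 0.306 FPKM in wild type MGE, against 0.259 FPKM in null MGE and 0.155 FPKM in wild type MGE for Kcnq1, whose length changed less. The order of Kcnq5 and Kcnq1 rests on that choice, and the ratio of Kcnq3 to Kcnq5 becomes 15.9 to 19.1 in null libraries and 8.74 to 13.4 in wild type libraries.

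Set beside the 93 other genes of the table whose symbols begin with Kcn, outside the Kcnq family, Kcnq3 ranked near the top. By mean FPKM, 2 of them were higher than Kcnq3 in Sp9 null MGE, namely Kcnk10, a leak channel of the K2P family, and Kcnn1, a calcium-activated channel of small conductance. In wild type MGE 8 of them were higher, adding among others the delayed rectifier Kcna3. For Kcnq5, 47 others were higher in null MGE and 57 in wild type MGE, and for Kcnq1, 47 in null MGE and 61 in wild type MGE. These ranks use the deposited lengths, and that of Kcnq5 rests on the longer length named above. Another 11 Kcn genes were listed at 0 in null MGE and 10 in wild type MGE.

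Genes that work with Kcnq channels showed no call in either edgeR fit. Of 14 listed partners and regulators 10 were tested, with a median log2 fold change of 0.06 beside -0.0046 over all tested genes. At an unadjusted p under 0.05 there were 0 of them without the block and 1 with it, and DESeq2 called 0. Over all 14929 tested genes, 882 were under that p without the block and 2573 with it, and 0.147% and 4.0% were called. With 10 genes tested, 0 calls is near those shares. Ank3 encodes ankyrin-G, which anchors Kcnq3 at the axon initial segment, and its log2 fold change was 0.25 with a standard error of 0.65. The wide error of Ank3 goes with replicate 2, where it had 898 counts in the null library and 1055 in the wild type library, against 1898 to 3565 in the other null libraries and 2482 to 2703 in the other wild type libraries. Akap5, the scaffold that brings protein kinase C to the M-channel, had a log2 fold change of 0.30 with a standard error of 0.17.

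The Kcne beta subunits were scarce. Kcne1, the partner of Kcnq1 in the heart, had 0 counts in all 6 libraries. Kcne2, the partner of Kcnq1 in gastric parietal cells, had 0, 0 and 0 counts in null libraries and 1, 5 and 3 counts in wild type libraries. The gastric proton pump gene Atp4a had 2, 10 and 9 counts in null libraries and 29, 44 and 38 counts in wild type libraries, in the same direction as the summed stomach and pancreas markers. The mean level of Kcnq1 was not lower in null libraries, and the part of stomach or pancreas RNA in its counts was not tested. Kcne3 had 5, 9 and 2 counts in null libraries and 4, 5 and 10 counts in wild type libraries. Kcne1l, the gene now named Kcne5, had 18, 27 and 9 counts in null libraries and 33, 20 and 26 counts in wild type libraries (log2 fold change -0.37, standard error 0.43).

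On the signalling side, 9 of 14 listed genes of Gq and PIP2 signalling were tested and none was called without or with the block or in DESeq2, with 0 at an unadjusted p under 0.05 in both edgeR fits. Their median log2 fold change was -0.01. For comparison, edgeR called 0.147% of all tested genes without the block and 4.0% with it. Among 9 genes, 0 calls is near both shares. The unadjusted cut was met by 882 of all 14929 tested genes in the unblocked fit and by 2573 in the blocked one. The muscarinic receptor Chrm1, whose activation gave the M-current its name, had 1, 3 and 0 counts in null libraries and 5, 4 and 1 counts in wild type libraries. The G protein Gnaq stood at 161 ± 30.6 CPM in null MGE and 161 ± 18.3 CPM in wild type MGE. Pip5k1c, a kinase that makes PIP2, stood at 194 ± 21.4 CPM in null MGE and 212 ± 22.1 CPM in wild type MGE (log2 fold change -0.11, standard error 0.11). The muscarinic receptor was thus at a few counts a library, while the G protein and the kinase were abundant.

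Among transcription factors known to act on Kcnq promoters, and close relatives of them, 5 of 5 were tested and 0 were called in either edgeR fit or in DESeq2. Sp1, which activates Kcnq genes and belongs to the same protein family as Sp9, was at 148 ± 15.9 CPM in null MGE and 149 ± 9.86 CPM in wild type MGE (log2 fold change 0.01, standard error 0.10). Rest, a repressor of neuronal genes, was at 31.5 ± 3.08 CPM in null MGE and 29.3 ± 3.07 CPM in wild type MGE. At an unadjusted p under 0.05 there were 0 of the 5 without the block and 1 with it, next to 882 and 2573 of all 14929 tested genes. With 5 genes tested, 0 calls is near the shares called over all tested genes, 0.147% without the block and 4.0% with it. The median log2 fold change of the 5 was 0.08.

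**Figure D2:**
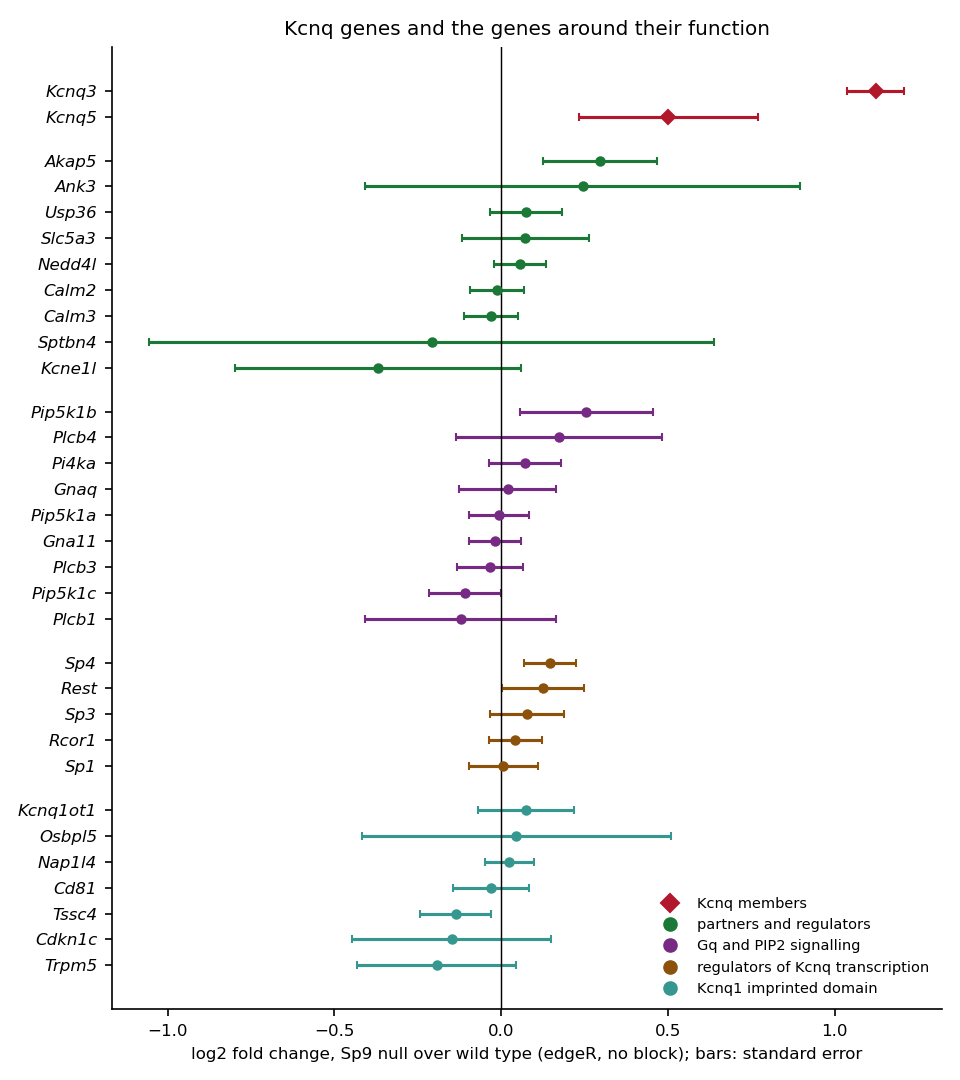
Log2 fold changes (Sp9 null over wild type, edgeR without the block) of Kcnq3 and Kcnq5 (diamonds) and of 30 tested genes of the 4 functional lists (circles), with standard errors as bars. Kcnq3, selected on this difference, is at 1.12 and Kcnq5 at 0.50. Most other genes shown lie near 0, and Ank3 and Sptbn4 have the widest bars.

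Of the 93 other genes with Kcn symbols, which include channel subunits, their partners and a few antisense transcripts, 51 were tested. Without the block edgeR called 0 of them (2 at an unadjusted p under 0.05) and DESeq2 called 1, Kcnh7. With the block, 2 of the 51 (3.92%) were called higher in Sp9 null MGE, next to 2.22% of all tested genes in that fit. The median log2 fold change of the 51 was 0.01. Kcnh7, an Erg-type channel, was at 49.4, 54.4 and 50.7 CPM in null libraries and at 27.8, 26.1 and 36.2 CPM in wild type libraries, with no overlap. Its log2 fold change was 0.80 with a standard error of 0.14 without the block (adjusted p = 0.120 in edgeR), and 0.81 with a standard error of 0.10 with it. The adjusted p with the block was 1.66e-06 in edgeR, and Kcnh7 stayed called when any of the pairs was left out. Kcnh7 lies on chromosome 2 at 10.58 Mb from Sp9, so alleles linked to the Sp9 mutation and the genotype cannot be told apart there; none of the Kcnq genes described is on chromosome 2. Kcnc2, a fast delayed rectifier of interneurons, was at 13.2, 9.38 and 11.98 CPM in null libraries and at 10.6, 3.48 and 9.08 CPM in wild type libraries, with overlap. With the block its log2 fold change was 0.67 with a standard error of 0.19 (adjusted p = 0.0427 in edgeR). That call was lost without pair 2 (adjusted p = 0.529 in edgeR) and without pair 3 (adjusted p = 0.162), and in DESeq2 with the block (adjusted p = 0.574).

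Around Kcnq3 (ENSMUSG00000056258, minus strand, chr15:65986387-66286224), no tested neighbour was called. Of 19 annotated genes within 1 Mb, 4 were tested and 0 were called in either edgeR fit or in DESeq2. None reached an unadjusted p under 0.05 in either edgeR fit. With 4 genes tested, 0 calls is near the shares over all tested genes, 0.147% without the block and 4.0% with it. The nearest, Efr3a, which helps to hold a PIP2 precursor kinase at the plasma membrane, was at 44.4 ± 1.40 CPM in null MGE and 41.3 ± 3.19 CPM in wild type MGE (log2 fold change 0.13, standard error 0.10). Phf20l1, St3gal1 and Ndrg1 had log2 fold changes of 0.10, 0.19 and 0.57 with standard errors of 0.07, 0.14 and 0.44. The annotated gene that overlaps Kcnq3, Gm27153, had 0 counts.

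Kcnq5 (ENSMUSG00000028033, minus strand, chr1:21398403-21961942) had 28 annotated genes within 1 Mb, of which 8 were tested. Of these, 0 were called in either edgeR fit or in DESeq2, and 0 were at an unadjusted p under 0.05 in both edgeR fits. With 8 genes tested, 0 calls is near the shares over all tested genes, 0.147% without the block and 4.0% with it. The median log2 fold change of the 8 was -0.01. Inside Kcnq5, Gm26580 had 67 counts over all libraries and a log2 fold change of -0.28 with a standard error of 0.43. Kcnq1 (ENSMUSG00000009545, plus strand, chr7:143106362-143427042) had 58 genes within 1 Mb, of which 20 were tested. Among them were 7 of the 11 listed genes of the imprinted domain, with a median log2 fold change of -0.03 and 0 calls in either edgeR fit or in DESeq2 (0 at an unadjusted p under 0.05 in both). Cdkn1c, the growth inhibitor of that domain, was at 71.5 ± 27.4 CPM in null MGE and 80.3 ± 14.2 CPM in wild type MGE. Without the block 0 of the 20 were called (2 at an unadjusted p under 0.05), and DESeq2 called 0. With the block, 2 of the 20 (10%, against 4.0% of all tested genes) were called, both outside the domain list: Th, the dopamine synthesis enzyme, rose by 0.78 on the log2 scale (standard error 0.13, adjusted p = 0.000103 in edgeR), and Ctsd, a lysosomal protease also abundant in microglia, fell by 0.31 (standard error 0.07, adjusted p = 0.00844). The call of Ctsd was lost without pair 2 (adjusted p = 0.185 in edgeR) or pair 3 (0.286) and in DESeq2 with the block (adjusted p = 0.348). In edgeR with the block 5 of 6 tested microglia markers were also called lower, and their part in the Ctsd value was not tested.

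**Figure D3:**
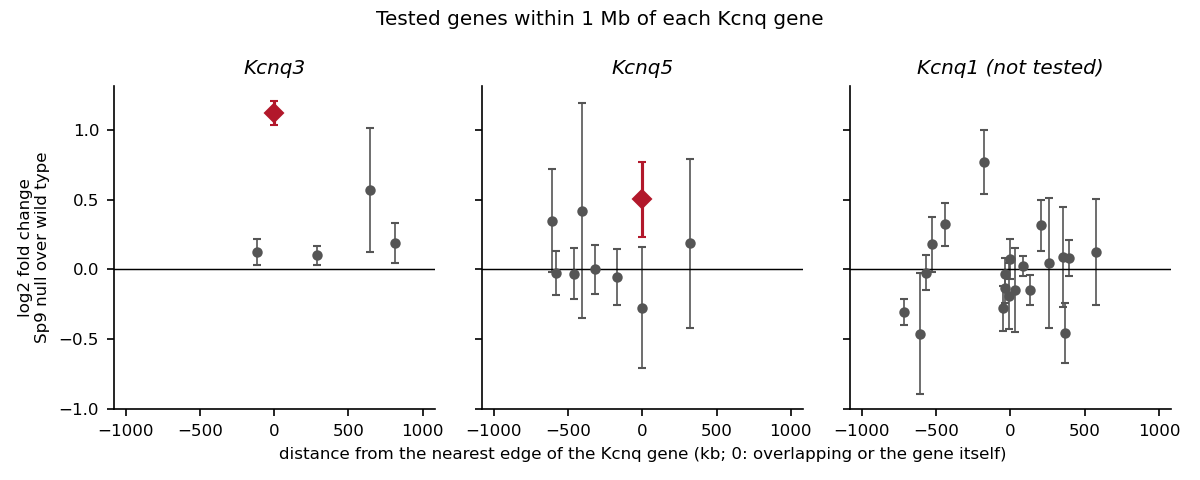
Log2 fold changes (Sp9 null over wild type, edgeR without the block, with standard errors) of tested genes within 1 Mb of Kcnq3, Kcnq5 and Kcnq1, against distance in kb; diamonds are the Kcnq genes themselves, and Kcnq1 was not tested. Kcnq3 at 1.12 lies above its 4 neighbours, which lie between 0.10 and 0.57, but it was selected on this difference. Nothing is read from its place.

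Across the 6 libraries, the genes whose log2 CPM profile was most like that of Kcnq3 were Pcdh19, Cul4b, Kif21a, Uba7 and Ets2, with Pearson correlations of 0.999, 0.997, 0.996, 0.991 and 0.991. The points are 3 libraries of each genotype, so a gene that separates the genotypes with little scatter scores high whatever the size of its difference. Pcdh19, a cell adhesion protocadherin, was at 107, 110 and 104 CPM in null libraries and at 75.9, 78.3 and 76.3 CPM in wild type libraries. Its log2 fold change was 0.50, against 2.41 for the lowly expressed Uba7 (2.01 to 3.37 CPM in null libraries and 0.420 to 0.605 CPM in wild type libraries). For Kcnq5 the most alike were AF529169, Duxbl1, Lgals3bp, Shc3 and Cdkn2aip, with correlations of 0.989 to 0.977. Duxbl1 has near-identical copies in the genome and its counts are uncertain.

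In replicate 2, where neuronal markers were lowest, Kcnq3 was at 117 CPM in the null library and at 51.8 CPM in the wild type library. The null value was the highest of its genotype, and the wild type value was level with that of replicate 3. The sum of the radial glia markers was highest in replicate 2, at 5507 CPM in the null library and 5299 CPM in the wild type library. It was 3904 to 4469 CPM in the other null libraries and 4222 to 4332 CPM in the other wild type libraries. The list was mixed: Mki67, Top2a, Nes and Vim were highest in replicate 2 of both genotypes, Slc1a3 was not, and Pax6 was lowest there. The sum of the 93 other Kcn genes was lowest in replicate 2, at 397 CPM in the null library and 407 CPM in the wild type library, against 556 to 577 CPM in the other null libraries and 549 to 559 CPM in the other wild type libraries. Kcnq3 was not low in either of these libraries. The summed MGE markers were higher in null libraries, but the list was split. Dlx1 made up most of the higher sum, at 1469 CPM in null MGE and 923 CPM in wild type MGE. It was the only MGE marker called in edgeR without the block, while DESeq2 without the block called 3 of the 10. With the block, Dlx1, Dlx2 and Gad2 were called higher and Lhx6, Gad1 and Nkx6-2 lower, 6 of 10 against 4.0% of all tested genes. The call of Nkx6-2 was lost in DESeq2 with the block (adjusted p = 0.346) and in edgeR without pair 2 (adjusted p = 0.203) or pair 3 (adjusted p = 0.114). All of these except Nkx6-2 lie on chromosome 2 with Sp9, Dlx1 and Dlx2 at 1.7 Mb from it, so linked alleles and the genotype cannot be told apart there.

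Among the other lists, the fit with the block called 1 of 13 neuronal markers up (Elavl4) and 1 down (Tubb3), 0 of 10 radial glia markers (1 at an unadjusted p under 0.05), and 1 of 3 tested pallial and hypothalamic markers up (Tbr1), beside 4.0% of all tested genes. Without the block none of the genes of these lists was called in edgeR (1 neuronal marker was at an unadjusted p under 0.05), and DESeq2 called none. The call of Elavl4 was lost in DESeq2 with the block (adjusted p = 0.109) and in edgeR without pair 2 (adjusted p = 0.188) or pair 3 (adjusted p = 0.441). Tubb3 was lost without pair 2 (adjusted p = 0.110 in edgeR), and Tbr1 was lost without pair 3 (adjusted p = 0.669 in edgeR) and was not called in DESeq2 with the block. The fit with the block called 0 of 6 endothelial markers (0 at an unadjusted p under 0.05) and 0 of the 1 tested choroid plexus marker (1 at an unadjusted p under 0.05), while Folr1, a defining choroid plexus gene, was at 0 in all libraries. Pallial and hypothalamic markers summed to 1.55 to 59.1 CPM in null libraries and to 1.28 to 30.05 CPM in wild type libraries, lowest in replicate 2 of both. All 10 tested stomach and pancreas markers were called lower in edgeR with the block and 8 without it. Over all tested genes, 4.0% and 0.147% were called. Those 8 had 0 counts in every null library and passed the filter only through the wild type libraries. The list was also chosen with earlier results of these data known, so nothing is read from these calls. The other tested markers, Atp4a and Atp4b, were lower but not called in edgeR without the block (log2 fold changes -2.23 and -3.55). DESeq2 without the block called 10 of the 11 listed genes. The part of these cell types in the Kcnq values was not tested.

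**Figure D4:**
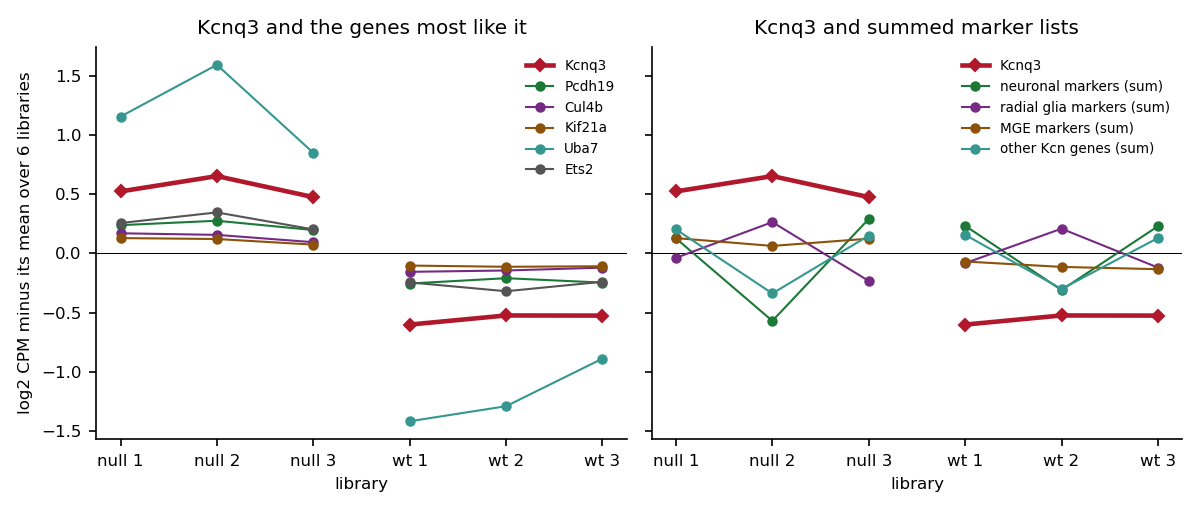
Log2 CPM minus its mean over the 6 libraries for Kcnq3 and the 5 genes most like it (left) and for Kcnq3 and summed lists (right), with Sp9 null libraries left of wild type libraries. Kcnq3 is high in all null libraries, while the neuronal and Kcn sums dip and the radial glia sum peaks in replicate 2 of both genotypes.

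The Kcnq genes are long: Kcnq3 spans 299.8 kb, Kcnq5 563.5 kb and Kcnq1 320.7 kb, more than 96.9%, 99.1% and 97.2% of tested genes. This property was looked at after values had been seen. The median log2 fold change was -0.05 over 4573 tested genes under 10 kb, -0.01 over 6378 genes of 10 to 50 kb, 0.04 over 3154 genes of 50 to 200 kb and 0.10 over 824 genes of 200 kb or more. With the block, 66 genes of 200 kb or more (8.01%) were called, 58 of them higher and 8 lower in Sp9 null MGE, against 52 higher and 127 lower among the genes under 10 kb, where 3.91% were called. The share over all tested genes was 4.0%. Without the block, 1 gene of 200 kb or more was called higher and 1 lower, and 4 genes under 10 kb were called higher and 8 lower. Among the 824 long genes, 7 had a higher log2 fold change than Kcnq3 and 63 a higher one than Kcnq5. Kcnq3 had been selected on this contrast, so nothing is read from its rank. In the fit with the block, the median of this class moved to 0.12, 0.10 and 0.04 when pair 1, 2 or 3 was left out, from 0.09 with all pairs. The part of gene length in the Kcnq values was not tested.

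**Figure D5:**
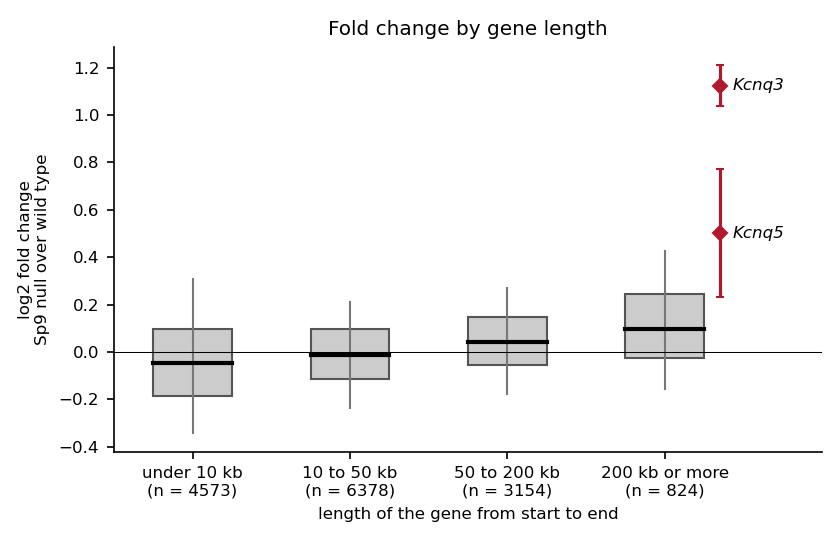
Log2 fold change (Sp9 null over wild type, edgeR without the block) of tested genes by gene length; boxes span the quartiles, whiskers the 10th to 90th percentiles and bars give medians, with Kcnq3 and Kcnq5 as diamonds with standard errors. Medians go up from -0.05 in the shortest class to 0.10 in the longest, and Kcnq3 at 1.12 lies beyond the whisker of its class. Kcnq3 was selected on this difference, so nothing is read from that place.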

How the data were processed

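RNA-seq libraries of E12.5 MGE from Sp9 null mice (n = 3) and wild type littermates (n = 3) were used. The deposited table holds raw counts and FPKM values per gene, per the file headers. The build GRCm38.p4 and the tools TopHat and Cufflinks 2.1.1 appear in the submitters' processing notes, with no role given; strandedness is not known here. FPKM as deposited equalled count divided by 1 fixed length and by the library total for 21180 of 21180 genes checked (relative tolerance 0.001). Members and gene lists were chosen with earlier results of these data known. Other Kcnq genes of the table and some genes of the lists are not reported here.

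Counts were fitted with edgeR 4.0.16 (TMM, filterByExpr, robust quasi-likelihood, Benjamini-Hochberg adjustment over 14929 genes, threshold 0.05, two-sided) in R 4.3.3, with DESeq2 1.42.0 as an alternative. Scripts were tested on simulated data. No sample column was left unmapped. CPM divides a count by the library's total. Counts of 3 mark the detection floor, equal to 0.273 to 0.440 CPM by library, and counting intervals and floors cover counting error only.

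Same-numbered libraries were taken as pairs, because their deviations from the genotype means correlated at 0.336, 0.729 and 0.535 (replicates 1, 2 and 3). Null replicate 3 and wild type replicate 1 also correlated (0.354), as did null replicate 1 and wild type replicate 3 (0.23). These values set replicate 2 apart but do not settle the pairs of replicates 1 and 3. The labels do not say what the numbers mark. Alternatives were RLE scaling, no filter, DESeq2, the replicate block in edgeR and DESeq2, and leaving out each library or pair. Named genes were the members, list genes called in either edgeR fit or otherwise those of highest CPM, overlapping genes, called neighbours within 1 Mb, and the 5 genes most like each tested member. Further named genes (the Kcne genes, Ank3, Akap5, Folr1, Kcna3, Kcnk10, Rest, Chrm1, Efr3a, Phf20l1, St3gal1, Ndrg1 and Atp4a) were picked after their values were seen. Sequence comparisons used GENCODE M21 transcripts.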

Additional observations from a re-analysis of the deposited data

How the results depend on the processing

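The log2 fold change of Kcnq3 was positive in all 14 alternatives run, between 1.06 and 1.17; it spanned 1.059 to 1.161 when each library was left out in turn and 1.075 to 1.169 when each pair was left out of the fit with the replicate block. Kcnq5 stayed positive in 14 of 14 (0.401 to 0.685 by library, 0.394 to 0.763 by pair, the highest without pair 1) and uncalled in every one. The replicate block changed the call of neither gene. The ratio of Kcnq1 stayed above 0 on the log2 scale in 9 of 9 (0.431 to 1.059 by library), but these settings reuse the same few counts. In the pair of replicate 3 alone its null to wild type ratio was 0.657. Kcnq1 has no edgeR value with the block because it fell below the filter. The count of called genes, 22, became 597 with the replicate block, 89 in DESeq2, 158 in DESeq2 with the replicate block and 65 with no filter; it ranged from 2 to 34 when each library was left out (2 without wild type replicate 1, 11 without wild type replicate 2, 6 without wild type replicate 3, 34 without null replicate 2), and from 126 to 1193 by pair with the block (1193 without pair 1, 126 without pair 2, 219 without pair 3). RLE scaling also gave 22.

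The channel-related lists held 226 genes, of which 106 were tested. They take in all genes within 1 Mb of a member, whether or not these have to do with channels. In edgeR without the block 0 were called (4 at an unadjusted p under 0.05). With the replicate block 4 were called (3.77%, against 4.0% of all tested genes): Kcnh7, Kcnc2 and the Kcnq1 neighbours Th and Ctsd. DESeq2 called 1 (Kcnh7), DESeq2 with the replicate block 2 (Kcnh7 and Th), and edgeR with no filter 1. Leaving out each library gave 0 to 0 and each pair 2 to 6. The marker lists had 9 calls, against 24 with the replicate block, 16 in DESeq2 and 19 in DESeq2 with the replicate block, 1 to 10 by library and 18 to 29 by pair. Stomach and pancreas markers gave 8 of the 9, and Dlx1 of the MGE list was the other. Of the 24, stomach and pancreas markers gave 10, microglia markers 5, and MGE markers 3 higher and 3 lower. These totals are thus not a measure of brain cell types alone. Over all tested genes the shares were 0.147% without the block and 4.0% with it. The causes were not tested. Depth limits Kcnq1, at 4 to 13 counts a library, and Kcnq5, at 20 to 38.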
